A study of Mus musculus with 28 samples.

Results

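Dox induction of Gfi1, Pou4f3 and Atoh1 together in the iGPA mouse embryonic stem cell (mESC) line was examined in 4 RNA-seq libraries, 2 from Dox-treated and 2 from untreated cultures, out of 28 libraries from 7 lines. The 4 libraries were chosen by their labels, and a gene's Dox effect below is its difference between them. Like the other lines, iGPA was derived from A2loxCre mESCs, and it carries a Dox-inducible cassette with all 3 transcription factors (TFs) and the fluorescent reporter mVenus. The cells were grown as embryoid bodies (EBs), free-floating aggregates that differentiate without LIF. In the Dox group 2 µg/ml doxycycline was added on day 4 and maintained for 48 h, and mVenus+ cells were sorted by FACS on day 6. In the No Dox group the EBs of the same line were harvested whole on day 6, with no drug and no sorting, so the effects of the TFs, of Dox itself and of sorting cannot be told apart. The 2 replicates of a group were different clones of the line. The iP+A line (Pou4f3 and Atoh1), the iG+A line (Gfi1 and Atoh1) and the iG+P line (Gfi1 and Pou4f3), each treated in the same way with its own 2 Dox and 2 No Dox libraries, were used to compare the Dox effect without Gfi1, without Pou4f3 and without Atoh1, respectively.

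Hair cells (HCs) are the mechanosensory cells of the inner ear, and their hair bundle carries the channels that open when sound or head movement deflects it. Atoh1 is a proneural basic helix-loop-helix (bHLH) factor required for HC formation, but it also directs granule neurons of the cerebellum, Merkel cells and intestinal secretory cells. Pou4f3 is a POU-homeodomain activator and Gfi1 a zinc-finger repressor with a SNAG domain, and both are needed for HC survival. In the developing epithelium, new HCs express Notch ligands and hold their neighbours in the supporting cell fate.

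Expression is given in normalised read counts, that is, read counts estimated by kallisto and normalised between libraries with DESeq2. A Dox effect is the difference in log2(normalised count + 1), which understates the change of genes with few counts. A gene was said to have risen or fallen where the adjusted p of limma was under 0.05 and the effect was at least 1.5 in size. By this rule 1456 of 16837 genes rose (8.65%) and 894 fell (5.31%), and 8806 had an unadjusted p under 0.05. The median effect was 0.01 and its median standard error (SE) 0.18. Between the 2 Dox libraries the correlation across genes was 0.987, between the 2 No Dox libraries 0.988, and between Dox and No Dox libraries 0.913 to 0.919. The depth, estimated roughly from the smallest steps in the values, was 36.5 to 38.1 M reads in the Dox and 40.7 to 45.3 M reads in the No Dox libraries. In bulk RNA a smaller share of cells of a type and less RNA per cell cannot be told apart.

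The 3 TFs were far higher in the Dox libraries. Atoh1 was at 87.3 and 92.3 normalised counts without Dox and at 16728 and 19107 with Dox, an effect of 7.62 (SE 0.33, adjusted p = 1.09e-11). Gfi1 was at 67.6 and 72.6 without and at 8119 and 9464 with Dox (effect 6.95, SE 0.25, adjusted p = 1.23e-12). Pou4f3 was at 48.9 and 72.6 without and at 13036 and 15115 with Dox (effect 7.86, SE 0.46, adjusted p = 3.67e-10). The groups were far apart for each TF, with no overlap. Reads of the transgene and of the endogenous gene are summed in these values. In the lines whose cassette lacks one of the TFs, no transgene of that TF is present. There Atoh1 rose from 4.11 and 3.02 to 32.5 and 24.8 in iG+P, Pou4f3 from 8.13 and 2.25 to 42.4 and 50.04 in iG+A, and Gfi1 from 27.3 and 33.0 to 85.9 and 107 in iP+A. Each of these passed the threshold (effects 2.70, 3.11 and 1.65), at levels that remained a small part of those reached with the transgene.

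Of 83 tested genes in 4 lists of HC genes, 36 rose and none fell, against 8.65% and 5.31% of all genes tested, and their median effect was 1.12. After quantile normalisation 1 of them, the homeobox gene Emx2, was called as falling (effect -1.76, against -1.43), as it was without the first No Dox library (-1.86). Among 18 TFs of HCs 10 rose, with a median effect of 2.30. Insm1 (mm9, chr2:146047657-146050752, plus strand), a zinc-finger factor with a SNAG domain that is transient in outer HCs, went from 13.98 and 8.84 to 5822 and 6018 normalised counts (effect 8.93, SE 0.49, adjusted p = 1.57e-10). Nhlh1, a bHLH factor of early neurons and HCs, went from 6.12 and 2.95 to 3430 and 3214 (effect 9.29). Lhx3, a LIM-homeodomain factor used as an HC marker, went from 0.501 and 1.405 to 337 and 497 (effect 7.76). None of these 3 genes had overlapping groups, which for Dox above No Dox held for 37.7% of all genes and for Dox below No Dox for 36.4%, and their untreated levels were all at or under 13.98. The homeobox gene Barhl1, needed for HC maintenance, went from 10.49 and 10.8 to 953 and 1207 (effect 6.53). Isl1 (chr13:117088478-117099896, minus strand), a LIM-homeodomain factor of the early otic epithelium and of sensory neurons, was already expressed without Dox, at 475 and 226, and reached 7397 and 7381 (effect 4.49, SE 0.45). The otic placode gene Eya1 (effect 3.06), the bHLH gene Hes6 (3.25) and the homeobox gene Prox1 (1.98) also rose. Nhlh2 was listed at 0 in both No Dox libraries and at 48.1 and 40.4 in the Dox libraries. In this list 8 genes did not pass. Gata3 was at 731 and 503 without and at 557 and 471 with Dox, Ikzf2, a factor of outer HCs, had an effect of -0.34, and Tbx2, a factor of inner HCs, one of -0.98.

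**Figure D1:**
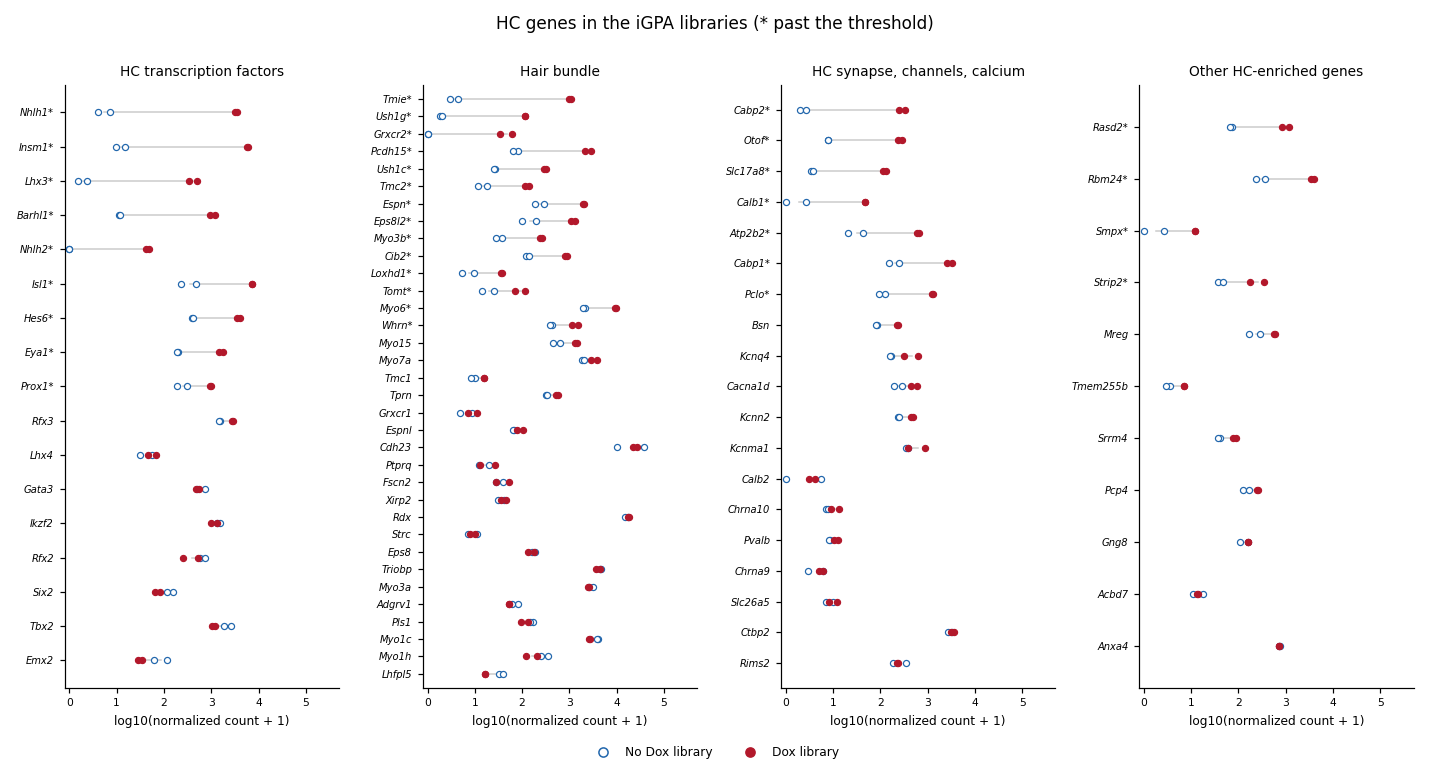
Normalised read count of tested HC genes in the 4 iGPA libraries, on an axis of log10(normalised count + 1); open circles are the 2 No Dox and filled circles the 2 Dox libraries, grey lines join the points at the group means, and an asterisk marks genes past the threshold. Genes are ordered by effect: for Tmie, Insm1 and Nhlh1 the Dox libraries lie far to the right, while for Strc, Gata3 and Slc26a5 the symbols of the groups lie together.

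The hair bundle list was split. Of 35 tested genes 15 rose and 20 did not pass in either direction, with a median effect of 0.74. The risers included several parts of the mechanotransduction complex at the tips of stereocilia. Tmie (chr9:110768215-110782617, minus strand), a membrane protein of that channel complex, was at 3.50 and 1.97 without and at 975 and 1086 with Dox (effect 8.14, SE 0.44, adjusted p = 1.35e-10). Tmc2, a channel subunit that is expressed in immature HCs, was at 10.49 and 16.7 without and at 114 and 137 with Dox (effect 3.14). Cib2, a calcium-binding partner of the Tmc proteins, had an effect of 2.68. Tmc1, the subunit of mature HCs, did not pass, at 9.10 and 7.44 without and at 14.5 and 14.3 with Dox. Pcdh15, the lower part of the tip link, was at 82.1 and 63.6 without and at 2863 and 2099 with Dox (effect 5.07, SE 0.36). Cdh23, the upper part of the tip link, was read at 10368 and 36932 without and at 27200 and 22116 with Dox, so that the groups overlapped (effect 0.33, SE 0.58, adjusted p = 0.679).

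Other bundle genes that rose belong to the complexes named after Usher syndrome. The scaffold gene Ush1g was at 0.874 and 0.983 without and at 112 and 113 with Dox (effect 5.88), and the scaffold gene Ush1c had an effect of 3.52. Among genes of the actin core, Espn, an actin bundler, was at 285 and 188 without and at 2033 and 1951 with Dox (effect 3.10), and the actin-cap gene Eps8l2 had an effect of 3.09. Myo6, an unconventional myosin and HC marker, was at 2125 and 1936 without and at 9698 and 9360 with Dox (effect 2.23, SE 0.20). Myo3b, a myosin of stereocilium tips, and Tomt, which is needed to bring Tmc proteins to the bundle, rose as well, with effects of 2.95 and 2.28. Myo7a, the most used HC marker, was at 1880 and 2008 without and at 2810 and 3785 with Dox; its effect of 0.75 (SE 0.13, adjusted p = 9.62e-05) had a low p but was smaller than the threshold. Myo15, the myosin that carries proteins to stereocilium tips, was likewise higher in both Dox libraries with an effect of 1.38, under the threshold. It was called without the second No Dox library (1.62) and with all 14 untreated libraries as the control group (1.98). Grxcr2 was listed at 0 in both No Dox libraries and at 32.8 and 60.6 with Dox. Strc, Ptprq, Xirp2, Lhfpl5 and Adgrv1, which are genes of bundle links, the mature actin core or the transduction complex, all stayed at or under 81.7 normalised counts in every iGPA library and did not pass. Loxhd1 rose (effect 2.39), but without the first No Dox library its adjusted p was 0.061. Whrn also rose (effect 1.71), with an effect of 1.49 without the second Dox library. Clrn1 and Clrn2 were too low to be tested and Pdzd7 was not analysed here.

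Of 19 tested genes of the HC synapse, channels and calcium handling 7 rose, with a median effect of 1.12. Otof (chr5:30669351-30764305, minus strand), the calcium sensor of the HC ribbon synapse, was at 6.99 and 6.88 without and at 293 and 240 with Dox (effect 5.07, SE 0.48). Slc17a8, the vesicular glutamate transporter of inner HCs, was at 2.47 and 2.77 without and at 111 and 128 with Dox (effect 5.06). Cabp2, a calcium-binding regulator of HC calcium channels, was at 0.968 and 1.70 without and at 246 and 333 with Dox (effect 6.96). For all 3 genes the Dox libraries lay more than an order of magnitude above the untreated ones. The related gene Cabp1 (effect 3.87), the plasma membrane calcium pump Atp2b2 (4.41), the active-zone scaffold Pclo (3.51) and the calcium buffer Calb1 (4.85) rose as well. Genes typical of mature HCs did not: the efferent receptor subunits Chrna9 and Chrna10, the outer HC motor protein Slc26a5, and the buffers Calb2 and Pvalb were all at or under 12.1 normalised counts in each iGPA library. The calcium channel gene Cacna1d, which drives transmitter release in inner HCs, was at 288 and 189 without and at 585 and 445 with Dox (effect 1.12), under the threshold. Of 11 further HC-enriched genes 4 rose, among them Rbm24, an RNA-binding protein of HCs, from 357 and 232 to 3948 and 3387 (effect 3.66), and Rasd2 (3.87). Smpx (2.91) was at or under 11.3 in all 4 libraries, and without the first No Dox library its adjusted p was 0.070. Strip2 rose by 2.55, Cib3 was too low to be tested, and Srrm4, a splicing regulator of neurons and HCs, did not pass, at 39.4 and 36.4 without and at 76.9 and 86.5 with Dox, except with all 14 untreated libraries as the control group (effect 2.26).

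E-boxes are DNA words of the form CANNTG that bHLH factors such as Atoh1 bind. Some of them were searched for in the bases just before gene starts. The RefSeq promoter table (build GRCm38.p6) held 16562 promoters for 13126 of the 16837 genes tested, and the 250 bases before each start were searched on both strands for 5 words. The E-boxes were CAGCTG and CAGATG. For the core bound by Gfi1 the words AAATCA and also AATCAC were taken, which share bases where one runs into the other. TAATTA is a word of homeodomain factors. CAGCTG was in 19.5% of 1384 promoters of genes that rose, 14.2% of 805 promoters of genes that fell and 12.95% of all promoters. The E-box CAGATG was in 14.7%, 13.4% and 10.8%, AAATCA in 9.25%, 13.2% and 8.16%, AATCAC in 7.23%, 8.82% and 7.87%, and TAATTA in 3.61%, 2.98% and 2.92%, in the same order. CAGCTG stood in 9 of 38 promoters of HC genes that rose and in 5 of 10 promoters of Notch pathway genes that rose, and CAGATG in 7 and 0 of them. Alternative promoters of a gene were counted separately. The 9 belong to 6 genes (Barhl1, Espn, Hes6, Isl1, Tmie and Tomt). The 5 belong to Dll1, Dll3, Hes6 and Lfng, so that Hes6 is in both sets. Of promoters of genes that fell, CAGCTG was in 0 of 9 of Hox and in 1 of 9 of fibroblast genes, and CAGATG in 0 and 2. A match is a description of these letters only. The windows of 7 such promoters follow, chosen after their values and letters were seen; 6 belong to genes that rose (HC genes and Notch ligands) and Acta2 to one that fell. Capitals mark CAGCTG.
Tmie, chr9:110880074-110880323, minus strand: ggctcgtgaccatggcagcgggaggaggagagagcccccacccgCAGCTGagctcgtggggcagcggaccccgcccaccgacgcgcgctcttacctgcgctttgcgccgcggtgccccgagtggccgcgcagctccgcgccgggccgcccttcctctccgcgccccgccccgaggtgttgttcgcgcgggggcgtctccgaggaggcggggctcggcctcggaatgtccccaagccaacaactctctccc
Isl1, chr13:116309689-116309938, minus strand: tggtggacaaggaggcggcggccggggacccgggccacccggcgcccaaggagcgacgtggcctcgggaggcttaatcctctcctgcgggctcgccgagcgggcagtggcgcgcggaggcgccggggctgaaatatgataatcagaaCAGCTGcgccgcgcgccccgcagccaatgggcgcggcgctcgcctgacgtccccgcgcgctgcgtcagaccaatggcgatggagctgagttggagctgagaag
Barhl1, chr2:28916669-28916918, minus strand: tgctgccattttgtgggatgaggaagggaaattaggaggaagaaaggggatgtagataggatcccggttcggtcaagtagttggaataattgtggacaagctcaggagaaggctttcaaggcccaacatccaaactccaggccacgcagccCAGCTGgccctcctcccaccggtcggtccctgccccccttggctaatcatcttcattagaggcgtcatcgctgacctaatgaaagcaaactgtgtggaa
Espn, chr4:152128926-152129175, minus strand: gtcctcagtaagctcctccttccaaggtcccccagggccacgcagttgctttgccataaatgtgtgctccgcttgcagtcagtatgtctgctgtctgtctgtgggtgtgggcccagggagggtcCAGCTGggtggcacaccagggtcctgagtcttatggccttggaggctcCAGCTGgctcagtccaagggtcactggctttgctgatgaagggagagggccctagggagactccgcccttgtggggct
Dll1, chr17:15376933-15377182, minus strand: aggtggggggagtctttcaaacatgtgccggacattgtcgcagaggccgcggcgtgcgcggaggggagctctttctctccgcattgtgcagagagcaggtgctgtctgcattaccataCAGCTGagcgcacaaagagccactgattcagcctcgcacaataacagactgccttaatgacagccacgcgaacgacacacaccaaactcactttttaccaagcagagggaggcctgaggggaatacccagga
Dll3, chr7:28301786-28302035, minus strand: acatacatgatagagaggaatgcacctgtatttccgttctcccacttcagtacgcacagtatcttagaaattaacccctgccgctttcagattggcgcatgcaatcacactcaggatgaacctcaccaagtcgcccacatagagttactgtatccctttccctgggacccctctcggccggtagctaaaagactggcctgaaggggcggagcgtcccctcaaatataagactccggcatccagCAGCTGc
Acta2, chr19:34255374-34255623, minus strand: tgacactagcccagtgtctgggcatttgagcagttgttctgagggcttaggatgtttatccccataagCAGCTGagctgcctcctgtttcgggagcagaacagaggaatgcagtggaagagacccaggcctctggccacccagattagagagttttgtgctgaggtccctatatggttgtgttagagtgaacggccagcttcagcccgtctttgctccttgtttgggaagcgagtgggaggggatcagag
In these windows the first base of a CAGCTG lay 206 bases before the start in Tmie, 103 in Isl1, 99 in Barhl1, 126 and 78 in Espn, 132 in Dll1, 7 in Dll3 and 182 in Acta2.

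Of 19 genes of the Notch pathway, through which new HCs inhibit their neighbours, 11 rose and none fell, with a median effect of 2.74. Among the ligands, Dll3 (chr7:29076673-29087257, minus strand) was at 73.4 and 39.3 without and at 7423 and 6117 with Dox (effect 6.94, SE 0.68), and Dll1 at 55.0 and 16.7 without and at 820 and 980 with Dox (effect 4.83). Jag2, a ligand of nascent HCs, was at 501 and 314 without and at 4706 and 4516 with Dox (effect 3.53). Dll4 rose by 3.29, while Jag1, the ligand of supporting cells, was at 315 and 213 without and at 637 and 826 with Dox (effect 1.48), just under the threshold, and was called without the first No Dox or the first Dox library (effects 1.76 and 1.67). The ligand and receptor modifiers Mfng (effect 5.37) and Lfng (4.69) rose and Rfng (-0.18) did not pass. The receptors Notch1, Notch2, Notch3 and Notch4 did not pass either, with effects of -0.38 to 1.13, of which Notch4 was called without the first Dox library (1.75). Among the target genes that report pathway activity, Hes5 went from 3.49 and 0.982 to 179 and 268 (effect 6.20), Heyl from 13.1 and 13.8 to 640 and 876, and Hey1 (2.74) and Nrarp (2.02) also rose. Hes1 did not pass, at 1651 and 772 without and at 1431 and 1246 with Dox, nor did Hey2 (effect -0.84).

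Of 23 tested genes of supporting cells and otic epithelium 6 rose and none fell, with a median effect of 0.02, which was 0.40 without the first and -0.41 without the second No Dox library. Apart from Lfng and Hey1, the risers were Sox10, a neural crest and otic factor, from 11.4 and 7.86 to 424 and 565 (effect 5.55), S100a1 (1.64), Otoa (1.87) and Gbx2 (2.47). The last 3 calls were each lost without one or more libraries: the effect of S100a1 was 1.48 without the first Dox library, the adjusted p of Otoa was 0.098 without the second Dox library, and that of Gbx2 was 0.17 without the first No Dox, 0.073 without the second No Dox and 0.22 without the first Dox library. After quantile normalisation none of these 3 was called, while Sox9 was called as falling (effect -1.54), so that 3 of the 23 rose and 1 fell. The otic placode genes Pax2, Pax8, Dlx5 and Dlx6 stayed at or under 11.4 normalised counts in every iGPA library, and the supporting cell genes Gjb2, Gjb6 and Otog at or under 21.0. Sox2, a progenitor factor, was at 866 and 228 without and at 403 and 315 with Dox, with no difference beyond the spread of the No Dox libraries (effect -0.32, SE 0.72). With all 14 untreated libraries as the control group it was called as falling (-1.71, adjusted p = 0.032). Sox9 (effect -1.22) and the supporting cell receptor Fgfr3 (-1.47) were lower in both Dox libraries, with effects under the threshold; without the first Dox library Sox9 was called as well (-1.60), and Fgfr3 was called without the first No Dox or the second Dox library (-1.54 and -1.74).

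Genes of neurons rose beside those of HCs. Of 10 tested proneural bHLH genes 7 rose, with a median effect of 3.72, and 8 more listed ones were too low to test. Neurod1, a neuronal differentiation factor that Atoh1 also acts through in the cerebellum, went from 20.1 and 10.8 to 694 and 592 (effect 5.35), and Ascl2 (4.74) and Olig3 (4.74) rose, whereas Neurog2 (0.61) did not pass. Bhlhe22 (1.88) was not called without the first No Dox, the second No Dox or the first Dox library (adjusted p 0.056 to 0.12). Of 28 pan-neuronal genes 15 rose and 2 fell, with a median effect of 1.61, and the list summed to 5850 and 6390 normalised counts without and to 23811 and 22419 with Dox. The part of neurons in the HC results was not tested. Elavl4, an RNA-binding protein of postmitotic neurons, was at 65.9 and 60.0 without and at 2080 and 1819 with Dox (effect 4.93), and the neurofilament gene Nefl at 24.5 and 21.6 without and at 877 and 1048 with Dox (effect 5.32). The microtubule-associated genes Dcx (effect 5.49) and Map2 (4.35) and the vesicle protein gene Syp (4.64) rose too. In none of these 5 genes did the Dox libraries overlap the untreated ones. Gap43, a growth cone protein, went the other way, from 556 and 829 to 49.2 and 124 (effect -3.10), and Nefh fell from 28.8 and 30.5 to 7.16 and 9.08 (effect -1.76). Nefh was not called with all 14 untreated libraries as the control group (-1.38), nor with 5 instead of 1 added to the counts (-1.40). Tubb3, a common marker of neurons, was at 133 and 91.4 without and at 278 and 222 with Dox (effect 1.17), under the threshold. Stmn2 (1.69) was not called without the second No Dox, the first Dox or the second Dox library (adjusted p 0.065 to 0.19), and Snap25 (1.54) not without any of the 4 libraries (0.071 to 0.19).

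Of 19 tested genes of sensory neurons 10 rose and none fell, with a median effect of 2.62. Prrxl1, a homeobox gene of dorsal root ganglion and spinal sensory neurons, was among the largest rises of the table, from 3.76 and 4.41 to 2547 and 2603 (effect 8.99). The neurotrophin receptor gene Ntrk3 had an effect of 5.19, and Prph, an intermediate filament of peripheral neurons, went from 411 and 370 to 6547 and 5549 (effect 3.95). Pou4f1, the paralogue that marks sensory neurons, went from 50.7 and 30.5 to 547 and 449 (effect 3.62). Among genes of nociceptors, Scn10a went from 6.604 and 11.7 to 55.3 and 81.9 (effect 2.79) and Tac1 from 0.719 and 0 to 5.93 and 10.8 (effect 2.79). Calca, Scn11a and P2rx3 did not pass, though Scn11a was called as falling without the second Dox library (-1.78), and Trpv1 was too low to be tested. Scn10a was not called without the first No Dox or the second Dox library (adjusted p = 0.057 and 0.050), nor Tac1 without the second No Dox or the second Dox library (0.065 and 0.061). In a list for other cells that depend on Atoh1, 6 of 19 tested genes rose and 3 fell. The neuropeptide Sst (chr16:23889667-23890930, minus strand) went from 6.11 and 3.92 to 4774 and 4950 (effect 9.68), and the Merkel cell keratin Krt20 from 0 and 0.983 to 19.4 and 31.3 (effect 4.19). The falling members were Krt8, Krt18 and the granule neuron gene Cbln1, which went from 2863 and 3738 to 288 and 226 (effect -3.68); Krt8 and Krt18 are also genes of simple epithelia. Chga, a granin of endocrine cells, rose (2.05), but was not called with all 14 untreated libraries as the control group. Of genes of intestinal secretory cells Muc2 and Spdef did not pass (effects 0.03 and -0.55), nor did Tff3 (2.11, adjusted p = 0.0525), which passed with the replicate number as a block (adjusted p = 0.0353) and without the second No Dox library (effect 2.90, adjusted p = 0.038).

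**Figure D2:**
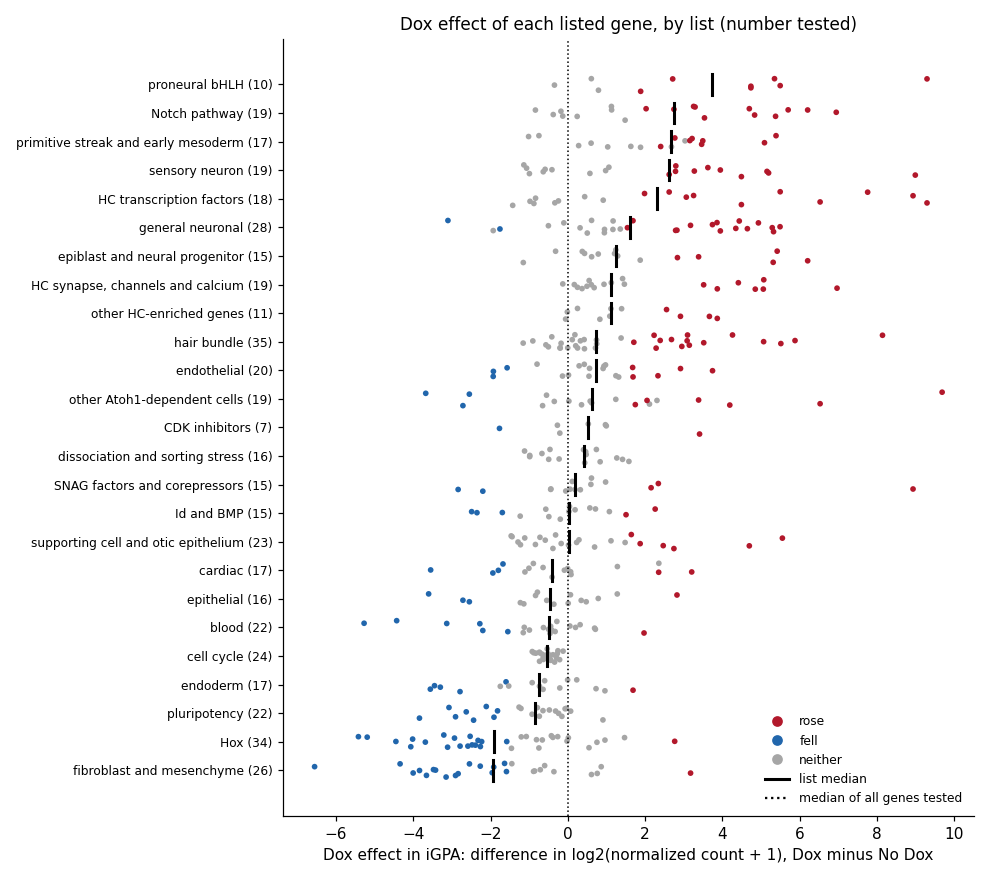
Dox effect in iGPA of each tested gene in 25 lists, with the number tested in brackets; each point is 1 gene (red rose, blue fell, grey neither), black bars are list medians and the dotted line is the median of all genes tested, 0.01. Proneural bHLH, Notch pathway and streak genes have the highest medians, and Hox and fibroblast genes the lowest.

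Early embryonic genes were also among the risers. In a list of 17 primitive streak and early mesoderm genes 8 rose and none fell, with a median effect of 2.68. Foxc1, a forkhead factor of paraxial mesoderm, went from 150 and 90.4 to 5357 and 4508 (effect 5.39), and Lhx1, a LIM-homeodomain factor of the organiser and of neurons, from 183 and 87.4 to 3950 and 4771 (effect 5.09). Tcf15 (3.46), Meox1 (2.77) and Foxc2 (2.40), factors of somites, rose as well. The genes T, Eomes and Mesp1 differed widely within groups: T was at 58.5 and 12.8 without and at 224 and 48.4 with Dox, and for all 3 genes the first library of each group was the higher. They did not pass (adjusted p = 0.230, 0.128 and 0.0716), but did with the replicate number as a block (effects 1.88, 2.68 and 3.03; adjusted p = 0.0138, 0.00103 and 0.00135), as did Fgf8 (1.63, 0.0107). Without the second No Dox library 5 of the 17 passed, with Gsc, Mesp2 and Msgn1 lost, and without the first Dox library 6 rose and Wnt3 fell (-1.68). Of 15 epiblast and neural progenitor genes 5 rose, with a median effect of 1.24 (2.02 without the first No Dox library). Pou3f1, a POU factor of epiblast and neurons, went from 85.6 and 32.4 to 2361 and 2231 (effect 5.42) and the neural plate gene Sox1 from 11.4 and 9.82 to 387 and 543 (effect 5.31), whereas Otx2, Pax6 and Sox3 did not pass. With all 14 untreated libraries as the control group Sox2 and Otx2 of this list fell (Otx2 by 3.21 on the log2 scale, adjusted p = 0.0078). Six3 (2.84) was not called without any of the 4 libraries (adjusted p 0.054 to 0.13).

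The fibroblast and mesenchyme list had the lowest median effect of the 25 lists (-1.94), with 16 of 26 genes falling and Thy1 alone rising. The list summed to 299488 and 396180 normalised counts without and to 89241 and 96929 with Dox. Thy1, also a surface protein of neurons, went from 66.4 and 51.1 to 526 and 543 (effect 3.17). Col1a1, a fibrillar collagen chain, fell from 38845 and 44545 to 4106 and 3672 (effect -3.42, SE 0.38, adjusted p = 9.89e-07), and its partner chain Col1a2 from 7825 and 14484 to 470 and 587 (effect -4.34). Acta2, smooth muscle actin, fell from 29734 and 30630 to 1858 and 2401 (effect -3.84). Lum (chr10:97028135-97035337, plus strand), a small matrix proteoglycan, was at 259 and 1040 without and at 4.09 and 5.05 with Dox (effect -6.55). In none of these 4 genes did the groups overlap. The TFs Snai2 (-2.84) and Twist2 (-2.90) and the receptors Pdgfra (-1.96) and Pdgfrb (-2.27) fell too. Zeb1 and Zeb2, TFs of mesenchyme and of neurons, were higher in both Dox libraries, with effects of 0.86 and 0.76 that were under the threshold, and Snai1 and Prrx1 did not pass. Dcn (-3.15) and S100a4 (-1.92) were no longer called without the second No Dox or the first Dox library, Fn1 (-1.59) had an effect of -1.39 without the second No Dox library, and Tagln (-1.64) one of -1.46 without the first Dox library.

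Among 17 cardiac genes 4 fell and 2 rose, with a median effect of -0.41, which was -0.03 without the first and -0.87 without the second No Dox library. With all 14 untreated libraries as the control group 6 fell. Hand1, a bHLH factor of extraembryonic and cardiac mesoderm, fell from 35928 and 25804 to 3112 and 2176 (effect -3.55, SE 0.32, adjusted p = 7.87e-08), and its paralogue Hand2 from 3821 and 4911 to 934 and 1365 (effect -1.94). Tbx20 (effect -1.68, and -1.46 without the second Dox library) and the chromatin subunit Smarcd3 (-1.80) also fell. Gata4 was at 2546 and 2272 without and at 2437 and 2358 with Dox, and Tbx5 and Mef2c had effects of 0.07 and 0.08; none of the 3 passed. Myl7, an atrial myosin light chain, was at 174 and 103 without and at 971 and 489 with Dox (effect 2.35, adjusted p = 0.0530), and passed with the replicate number as a block (adjusted p = 0.0234). Actc1, cardiac actin, rose from 208 and 234 to 2326 and 1792 (effect 3.20), and Myl3 rose by 2.35, a call lost without the second No Dox library (adjusted p = 0.058).

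In the blood list 3 haemoglobin genes fell. Of 22 tested genes 6 fell and 1 rose, with a median effect of -0.48 (-0.81 without the first No Dox and -0.87 without the second Dox library), and the list summed to 286716 and 472267 normalised counts without and to 47899 and 77685 with Dox. The embryonic globin Hbb-bh1 (chr7:110990150-110991678, minus strand) was the highest of them, at 179528 and 299066 without and at 8177 and 14183 with Dox (effect -4.43, SE 0.49), and Hba-x fell from 65446 and 113275 to 6668 and 14461 (effect -3.13). Hbb-y (-5.27) and the erythroid TFs Gfi1b (-2.20) and Klf1 (-1.55) fell as well. Klf1 had an adjusted p of 0.054 without the second No Dox and of 0.076 without the first Dox library. Lmo2, a bridging factor of blood and endothelial progenitors, rose from 2276 and 2794 to 9120 and 10726 (effect 1.97), and its partner Tal1 was at 5230 and 7456 without and at 8235 and 12734 with Dox (effect 0.71), under the threshold. The TF genes Gata1, Gata2, Runx1, Myb, Lyl1, Nfe2, Ikzf1 and Spi1 did not pass, with effects from -0.99 (Runx1) to 0.69 (Gata2).

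Endothelial genes moved in both directions. Of 20 tested 5 rose and 3 fell, with a median effect of 0.74, which was 1.18 without the first and 0.30 without the second Dox library. Etv2, the ETS factor that starts the endothelial and blood fates, went from 180 and 116 to 1542 and 2457 (effect 3.74, SE 0.39, adjusted p = 3.75e-07), and Sox18 (2.91), Flt4 (2.33), Cldn5 (1.68) and Sox7 (1.69) rose. The second Dox library was the higher one for each of these. Cldn5 and Sox7 were not called without it (adjusted p = 0.074, and an effect of 1.39), and Cldn5 neither without the first No Dox library (adjusted p = 0.12). Pecam1, an adhesion molecule of endothelium, fell from 2828 and 2469 to 487 and 992 (effect -1.93), while Kdr was at 6144 and 5837 without and at 10071 and 13764 with Dox (effect 0.98), and Cdh5 did not pass. The falls of Pecam1, Robo4 (-1.57) and Lyve1 (-1.93) were all lost without the first Dox library, where 8 genes rose and none fell. Lyve1 was not called without the second No Dox library either, nor Robo4 without either No Dox library, with all 14 untreated libraries as the control group 1 gene fell, and without the second Dox library 3 genes rose.

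**Figure D3:**
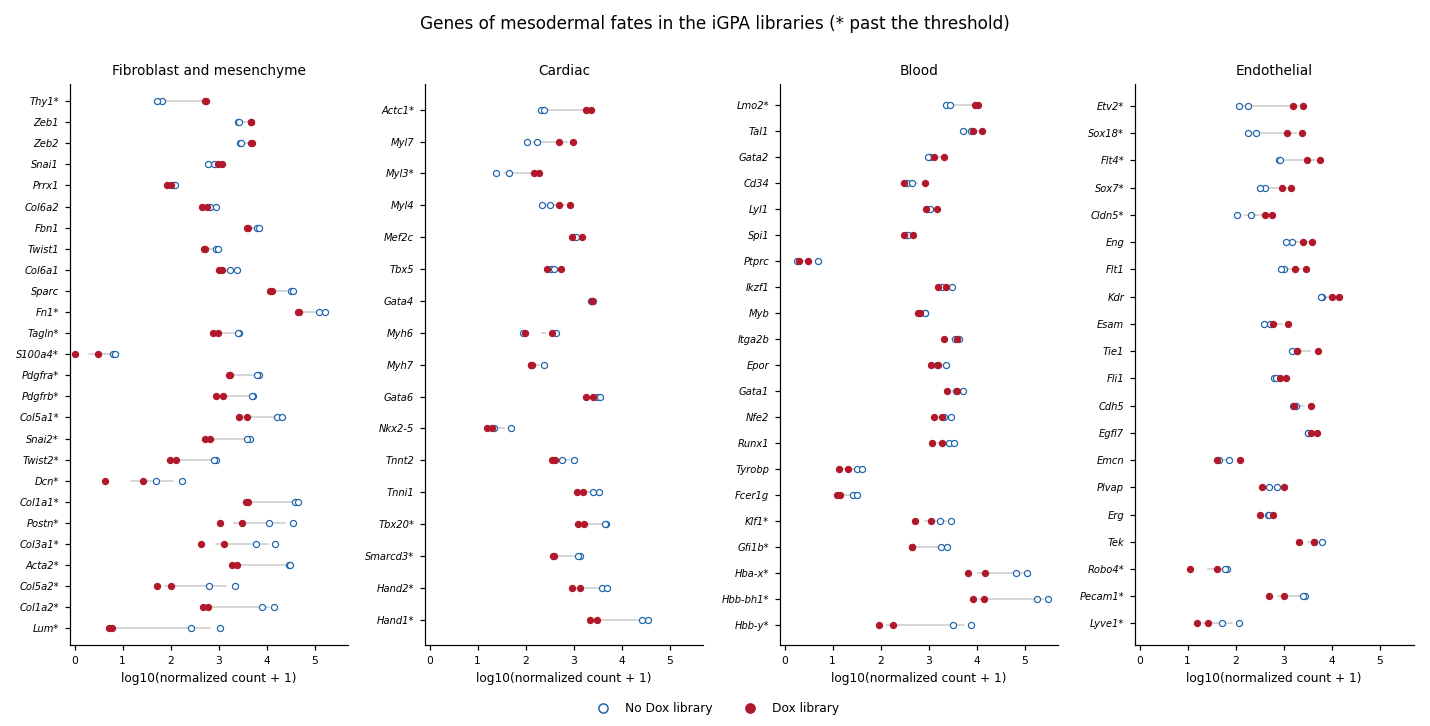
Normalised read count of tested genes of 4 mesodermal lists in the 4 iGPA libraries, on an axis of log10(normalised count + 1); open circles are No Dox and filled circles Dox libraries, grey lines join the points at the group means, and an asterisk marks genes past the threshold. Collagen, Hand1 and globin symbols of the Dox libraries lie to the left of the open ones, and those of Etv2, Lmo2 and Actc1 to the right.

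Endoderm and epithelial genes fell in part. Of 17 tested endoderm genes 5 fell and 1 rose, with a median effect of -0.73, which was -0.39 without the first and -1.21 without the second Dox library. With all 14 untreated libraries as the control group 7 fell. Dab2, an adaptor protein of visceral endoderm, fell from 5403 and 6548 to 414 and 714 (effect -3.45), and Ttr (-3.30), Apob (-3.56) and Hnf4a (-2.79) fell, whereas Foxa2, Sox17 and Afp did not pass, of which Afp was called with all 14 untreated libraries as the control group (-1.91). The call of Apoa1 (-1.60) was lost without the first No Dox library (adjusted p = 0.060) and without the second Dox library (adjusted p = 0.069). Of 16 epithelial genes 3 fell, all of them keratins of simple epithelia, and 7 fell with all 14 untreated libraries as the control group. Krt8 fell from 11168 and 10999 to 1481 and 1926 (effect -2.71), Krt18 by 2.55 and Krt19 by 3.60 on the log2 scale. The junction genes Cdh1 and Epcam were at similar levels in both groups, with effects of 0.07 and 0.48, and Cldn3 rose by 2.82.

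The pluripotency list had 8 of 22 tested genes that fell and none that rose, with a median effect of -0.86 (-0.41 without the first and -1.74 without the second No Dox library), but the No Dox libraries differed among themselves. Nanog was at 280 and 60.9 without and at 31.7 and 17.1 with Dox (effect -2.44, SE 0.83), and Dppa5a at 933 and 178 without and at 60.9 and 37.2 with Dox (effect -3.07). Pou5f1 was at 997 and 258 without and at 699 and 297 with Dox and did not pass (effect -0.15). The first No Dox library was the higher of its group for all 3 genes. Without it 1 of the 22 genes fell, Dppa3 (-3.84 with all libraries), without the first Dox library 4 and without the second Dox library 2, and with all 14 untreated libraries of the series as the control group 13 fell.

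Of the 39 Hox genes in the table, which specify position along the body axis in the order of their paralogue numbers, 34 were tested and 18 of them fell, with a median effect of -1.90. Hoxb1 alone rose, from 50.7 and 31.4 to 242 and 317 (effect 2.76), a call that was lost after quantile normalisation (adjusted p = 0.060) and without the second No Dox library (adjusted p = 0.12), the first Dox library (0.061) or the second Dox library (0.099). Hoxd1 had an effect of 1.47, under the threshold, and was called without the first No Dox or the first Dox library (1.73 and 1.61). In paralogue groups 1 to 4, which act in the hindbrain and neck, 2 of 11 fell and the median effect was -0.02. In groups 5 to 9 8 of 14 fell (median -2.36) and in groups 10 to 13 8 of 9 (median -2.79). This division by number was made after the values were seen. All 8 tested Hoxc genes fell. Hoxc8 (chr15:102821053-102824698, plus strand) went from 446 and 330 to 11.2 and 8.07 (effect -5.19, SE 0.41, adjusted p = 1.26e-08), and Hoxc6 from 303 and 230 to 19.5 and 11.3 (effect -4.06). In the Hoxb cluster Hoxb6, Hoxb7 and Hoxb8 fell, by 5.42, 2.32 and 2.39 on the log2 scale, while Hoxb2 was at 1465 and 1142 without and at 1091 and 1491 with Dox (effect -0.02), and Hoxb4, Hoxb5 and Hoxb9 did not pass, of which Hoxb5 was called without the second Dox library (-1.66). Among the low numbers Hoxc4 fell (-1.58). Neighbouring genes of these clusters overlap, and how reads were divided among their transcripts was not examined. Hoxc11, which was listed at 0 in both Dox libraries, Hoxc4 and Hoxd13 each lost their call without 1 or more libraries.

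**Figure D4:**
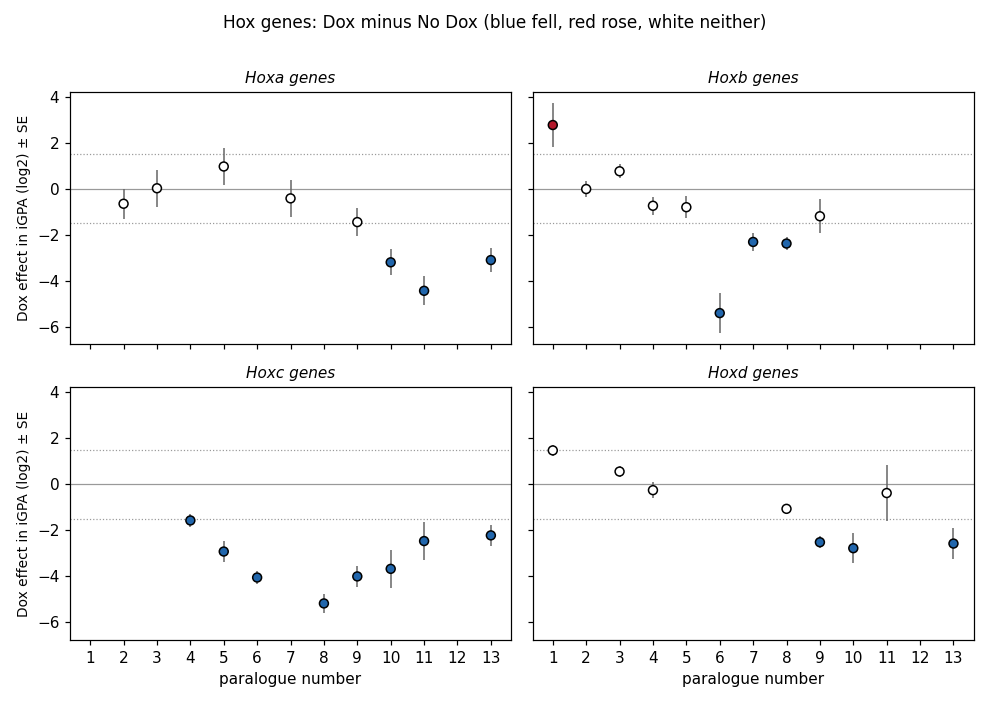
Dox effect in iGPA (difference in log2(normalised count + 1), with its standard error as the bar) of tested Hox genes by paralogue number in each cluster; blue points fell, the red point rose, white points did neither, and dotted lines mark effects of 1.5 and -1.5. Points at numbers 1 to 4 lie on both sides of 0, and most points at high numbers lie below -2.

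In the BMP and Id list 2 of 15 genes rose and 3 fell, where 8.65% of all genes rose and 5.31% fell. Whether the counts in this and the following small lists differ from those shares was not tested. Bmp4 fell from 8766 and 6430 to 1457 and 1228 (effect -2.49), and its target Msx1 (-1.69) and its antagonist Nog (-2.35) fell, whereas Bmp7 rose from 508 and 256 to 1686 and 1773 (effect 2.26) and Id1, an inhibitor of bHLH factors, by 1.51. The calls of Id1 and Msx1 were lost without the second Dox library, and that of Id1 without the second No Dox library, with effects of 1.38 to 1.41 and -1.48. None of 24 cell cycle genes passed the threshold, but all 24 effects were below 0, and 20 had an unadjusted p under 0.05. Of all 16837 genes 8806 had such a p in either direction, and the median effect of all genes was 0.01. Mki67, a proliferation marker, was at 26260 and 31943 without and at 15761 and 19402 with Dox (effect -0.73, SE 0.12). Of 7 CDK inhibitor genes Cdkn2b rose, from 35.8 and 21.6 to 290 and 321 (effect 3.41), and Cdkn2c fell (-1.77). Cdkn1b, the inhibitor that holds HCs out of the cycle, was at 3400 and 3464 without and at 4940 and 4973 with Dox (effect 0.53), under the threshold. Among 15 SNAG factors and corepressors Rcor2, a corepressor that binds the demethylase Kdm1a, rose from 4249 and 3559 to 16628 and 18027 (effect 2.15), and Insm1 and Scrt1 (2.34) rose while Gfi1b and Snai2 fell. Kdm1a itself, Hdac1 and Hdac2 had effects of -0.05 to 0.19. Of 16 genes induced by dissociation and sorting none passed, with a median of 0.42 and a range from Atf3 (-1.12) to Hspa1a (1.58). Hspa1a was called without the second Dox library (2.41, adjusted p = 0.041) and with only the libraries of the lines compared (adjusted p = 0.047), and Btg2 (1.42) without the first Dox library (1.64). The part of sorting stress in other results was not tested.

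The 10 largest rises, among genes with a mean of at least 50 normalised counts in the Dox group, included genes outside the lists. Miat, a long noncoding RNA of neurons, went from 34.1 and 19.7 to 24585 and 20132 (effect 9.69). Mybpc1, a myosin-binding protein, went from 2.62 and 3.93 to 1830 and 3307 (effect 9.19), Btbd17 from 11.5 and 1.99 to 3332 and 3477 (effect 9.12), and Tfap2b, a TF of neural crest and dorsal neural tube, from 0.665 and 1.49 to 931 and 1051 (effect 8.92). The groups did not overlap in any of these 4 genes. Pcdhgb2 and Lrrn3 were both listed at 0 without Dox. With Dox, Pcdhgb2 was at 926 and 1185 and Lrrn3 at 582 and 631. Pcdhgb2 shares its last exons with the other Pcdhg genes, so that its reads may have been divided among them, and this holds for Pcdhga7 too. Among the 10 largest falls, Smoc2 (chr17:14416513-14541797, plus strand), a matrix protein, went from 7593 and 9216 to 75.7 and 65.0 (effect -6.88), the limb and craniofacial homeobox gene Alx4 from 281 and 277 to 1.02 and 3.03 (effect -6.61), the placental gene Plac1 from 1706 and 1353 to 24.1 and 22.2 (effect -5.98), and the orphan receptor Gpr50 from 407 and 790 to 6.26 and 10.3 (effect -5.97). Cd3d, annotated as a T cell receptor subunit, went from 382 and 295 to 4.09 and 2.02 (effect -6.42), with a wide error (SE 1.70). Ecsit, Ints2 and Evi2b were listed at 0 in both Dox libraries. Ecsit and Ints2 are used by most cells, and a 0 in these files can be a failed estimate, so no fold change is given for them.

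The Dox effect in iGPA was then compared with that in the lines that lack 1 of the TFs. The lines also differ in clones, cassette and TF levels, which cannot be told apart from the missing TF. With Dox, Pou4f3 was at 17590 and 19883 in iG+P against 13036 and 15115 in iGPA. Each line was set against its own untreated EBs, and the effects were subtracted. The effect in iGPA was higher than in iP+A for 802 genes (4.76%) and lower for 478 (2.84%), higher than in iG+A for 270 (1.6%) and lower for 101 (0.6%), and higher than in iG+P for 714 (4.24%) and lower for 280 (1.66%). Of the 3 lines, iG+A had the fewest genes that differed from iGPA. Of the 83 HC genes 12 were higher and 3 lower than in iP+A, 16 were higher and none lower than in iG+A, and 13 were higher and 4 lower than in iG+P. Their median effect was 1.12 in iGPA, 0.72 in iP+A, 0.46 in iG+A and 0.92 in iG+P. Both the count lower than in iG+A and that lower than in iG+P moved by over 1.5 times without single libraries. The first was 63 without the first No Dox library of iGPA and 65 without that of iG+A. The second was 156 without the first No Dox and 172 without the second Dox library of iG+P, and 161 without the second No Dox library of iGPA.

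**Figure D5:**
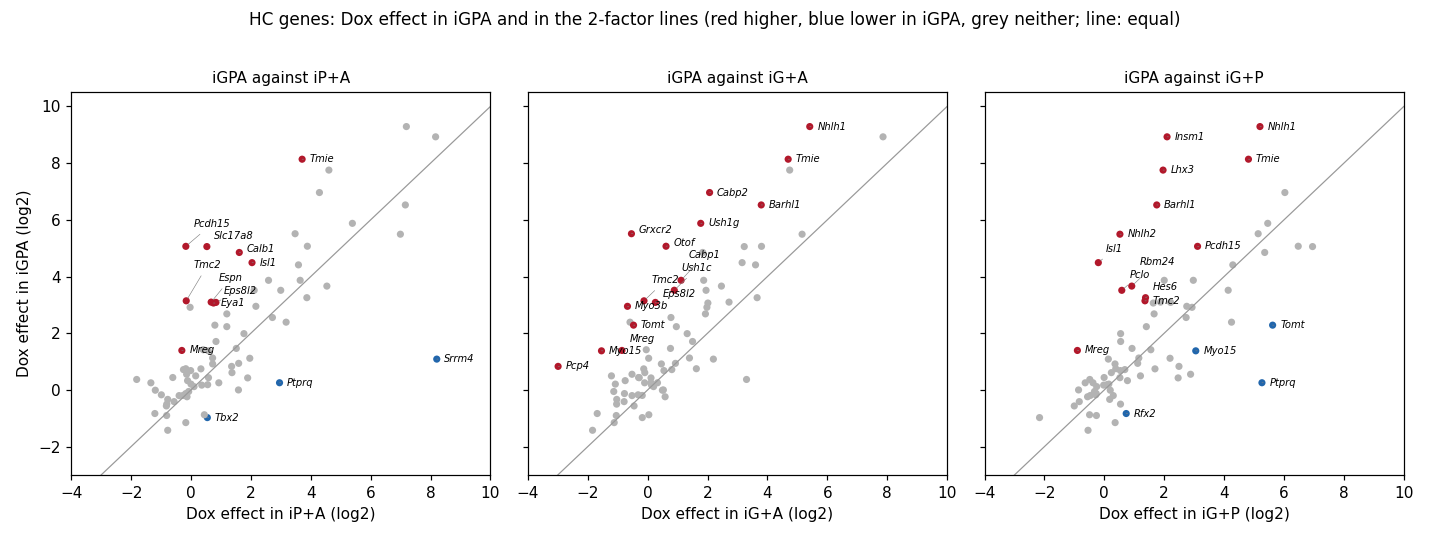
Dox effect of tested HC genes in iGPA (vertical axis) against that in iP+A, iG+A and iG+P (horizontal axes), as differences in log2(normalised count + 1); each point is 1 gene, red where the effect was higher in iGPA, blue where it was lower, grey where neither, and the line marks equal effects. Tmie, Tmc2 and Mreg are red in all 3 panels, and no point is blue against iG+A.

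Tmie, Tmc2 and Mreg, a melanosome transport gene listed among HC-enriched genes, had a higher effect in iGPA than in each of the 3 lines, which held for 36 of all 16837 genes (0.214%). Tmie rose by 3.71 in iP+A, 4.69 in iG+A and 4.81 in iG+P against 8.14 in iGPA, and Tmc2 had effects of -0.16, -0.12 and 1.36 against 3.14. Mreg did not pass the threshold in iGPA itself (1.39), except without the first No Dox library (1.77). Of the 18 TFs of HCs 7 were higher and 1 lower than in iG+P, the line without Atoh1, against 3 and 1 for iP+A and 2 and 0 for iG+A. Insm1, Lhx3, Barhl1, Isl1, Nhlh1 and Hes6 all had a higher effect in iGPA than in iG+P, by 1.88 to 6.84. Isl1 had effects of 4.49 in iGPA, 3.15 in iG+A, 2.04 in iP+A and -0.20 in iG+P. Of 35 bundle genes 9 were higher and none lower than in iG+A, the line without Pou4f3, against 6 and 1 for iP+A and 3 and 3 for iG+P, and of 19 synapse genes 3 were higher than in iG+A, 2 than in iP+A and 1 than in iG+P. Whether the lines differed in these counts was not tested. Otof had an effect of 0.61 in iG+A, against 5.07 in iGPA, 3.89 in iP+A and 6.48 in iG+P, and Cabp1, Cabp2, Ush1c, Ush1g, Myo3b, Eps8l2 and Tomt were likewise higher in iGPA than in iG+A. Pcdh15, Espn, Slc17a8, Calb1 and Eya1 were higher in iGPA than in iP+A, the line without Gfi1; Pcdh15 had effects of 5.07 in iGPA and -0.17 in iP+A, with 3.80 in iG+A and 3.11 in iG+P. Some HC genes were lower with all 3 TFs. Ptprq, a phosphatase of the bundle shaft, had effects of 0.25 in iGPA, 5.26 in iG+P and 2.96 in iP+A, and Tomt (2.28 against 5.62) and Myo15 (1.38 against 3.05) were lower than in iG+P.

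Several neuronal genes had a lower effect in iGPA than in iP+A. Tubb3 had an effect of 1.17 in iGPA and 5.40 in iP+A (difference -4.24), Srrm4 one of 1.09 and 8.21 (-7.12), Barhl2, a TF of commissural neurons, one of 2.31 and 7.26 (-4.95), and Gap43 one of -3.10 and 3.15 (-6.25). Of the 28 pan-neuronal genes 4 were lower and none higher than in iP+A, while 8 were higher than in iG+A and 11 higher than in iG+P. Dcx, Elavl4, Map2, Nefl and Syp had effects in iGPA within 1.36 of those in iP+A and did not pass the test of the difference. Pou4f1 (3.62 against 6.21) and the TFs Scrt1 and Scrt2 were also lower than in iP+A.

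Several genes of other fates that fell in iGPA differed from iP+A, the line without Gfi1. Hand1 had effects of -3.55 in iGPA, -3.49 in iG+A and -3.56 in iG+P, against 0.34 in iP+A (difference -3.89), and Hand2 and Tbx20 were also lower than in iP+A. Of the 26 fibroblast genes 8 had a lower effect than in iP+A, 1 than in iG+A and 2 than in iG+P, and Col1a1, Col1a2, Acta2, Snai2 and Twist2 were among the 8. Col1a1 had effects of -3.42 in iGPA, -2.33 in iG+A, -3.13 in iG+P and -1.51 in iP+A. Of the 34 Hox genes 10 were lower than in iP+A, 6 than in iG+A and none than in iG+P, where 5 were higher. Hoxb7, Hoxb8 and Hoxd9, which fell in iGPA, had effects of -0.25 to 0.75 in iP+A and of -0.21 to 0.43 in iG+A, and of -3.38 to -3.15 in iG+P. Of the blood genes 9 of 22 were lower in iGPA than in iG+P and none higher, among them Klf1 (-1.55 against 1.13). For endothelial genes it was the reverse, with 11 of 20 higher in iGPA than in iG+P and none lower, among them Etv2 (3.74 against 0.60) and Kdr (0.98 against -0.94). Of 19 Notch genes 6 were higher than in iP+A and 10 higher than in iG+P. No blood, endothelial or Notch gene passed the threshold against iG+A, where the share over all genes was 1.6% higher and 0.6% lower, so that these counts were near the background.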

How the data were processed

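RNA was sequenced from 28 cultures. Per the labels, the authors used cutadapt, kallisto and DESeq2 with the mouse build mm9 (versions not given in the sources used here), and deposited log2 values of normalised counts + 1 for 19421 genes. These were converted to normalised counts. Genes with at least 10 normalised counts in at least 2 libraries were kept (16837). Log2(normalised count + 1) was fitted with limma 3.58.1 in R 4.3.3 (mean-variance trend, 14 group means, 14 residual degrees of freedom, Benjamini-Hochberg adjustment). Whole reads could not be recovered, since 72.4% to 79.4% of low values per library lay within 0.05 of a whole multiple, so no count test was run. Replicates were different clones, and p-values measure the spread between them. Deviations of equally numbered libraries correlated in every line (r of 0.103 to 0.246, 0.152 in iGPA), so the replicate number was tried as a block. The fit was tested on simulated data. The members and gene lists were chosen with earlier results of these data known. Genes named are the TFs, list members, the 10 largest rises and falls, and the 5 largest differences per direction from each line; some of these are not reported here by name or shown in the plots by gene. Columns for the iAtoh1, iGfi1 and iPou4f3 lines entered the fit for the spread.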

Additional observations from a re-analysis of the deposited data

Results flagged for a closer look

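The Dox effect differed between iGPA and the lines that lack one TF, by a test of the difference itself (limma, each line against its own untreated libraries). It was higher in iGPA than in iP+A for 802 genes and lower for 478, higher than in iG+A for 270 and lower for 101, and higher than in iG+P for 714 and lower for 280. No explanation was weighed. Of the 5 largest differences named in each direction for each line, 12 had a group listed at 0 and are left out.

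Against iP+A, the differences were 9.30 for Msln, 8.90 for Sst, -8.30 for Ntng1, -7.12 for Srrm4 and -6.25 for Gap43. Msln was at 0.875 and 0 without and at 451 and 411 with Dox in iGPA. Ntng1 was at 223 and 68.8 without and at 70.2 and 7.89 with Dox.

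Against iG+A, the differences were 7.26 for Sncg, 6.73 for Tfap2b, -5.09 for Pax8, -4.40 for Cldn1, -3.99 for Acvr1c, -3.92 for Pcdh20 and -3.74 for Shox2. Sncg was at 37.6 and 24.6 without and at 9112 and 9003 with Dox in iGPA. Pax8 and Cldn1 were at or under 4.10 in all 4 iGPA libraries, and their calls, like that of Acvr1c, were lost in several fits without 1 library (adjusted p up to 0.11 for Pax8, 0.14 for Cldn1 and 0.21 for Acvr1c). The call of Acvr1c was also lost with the replicate number as a block (adjusted p = 0.0809).

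Against iG+P, the differences were 7.46 for Mybpc1, 7.22 for Wnt10a, 7.14 for Unc80, -6.42 for Dio3os, -5.60 for Ces1d and -5.10 for Tenm2.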

How the results depend on the processing

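With an effect of at least 1 as the limit, 1368 genes fell in iGPA, and 727, 154 and 427 had a lower effect than in iP+A, iG+A and iG+P. With only the libraries of the 2 lines compared, 152 genes were higher and 39 lower than in iG+A. Leaving out 1 library in turn gave 1319 to 1476 genes that rose and 788 to 875 that fell in iGPA. The counts higher and lower ran from 602 to 862 and 335 to 516 against iP+A, 199 to 284 and 63 to 118 against iG+A, and 504 to 744 and 156 to 304 against iG+P. HC genes that rose ran from 35 to 37 (36 with all libraries), genes of the pluripotency, cardiac, endoderm, blood, fibroblast, epithelial and Hox lists that fell from 51 to 58 (60), and the effects of Atoh1, Gfi1 and Pou4f3 from 7.53 to 7.72, 6.84 to 7.06 and 7.58 to 8.14. With all 14 untreated libraries as the control group the effects of Atoh1, Gfi1 and Pou4f3 were 9.46, 7.21 and 9.72. No alternative reversed a called value. Among the list medians printed above, those that moved by over 1.5 times with all 14 untreated libraries as the control group were HC TFs (1.51), sensory neurons (1.49), streak (1.77), pluripotency (-2.05), blood (-0.13), cardiac (-0.73), stress (0.23) and supporting cell genes (-0.50). With a pseudocount of 5 the medians of sensory neurons (1.30) and proneural genes (2.36) did so, with no filter those of proneural (2.30), cardiac (-0.25) and Hox genes (-1.20), with quantile normalisation that of cardiac genes (-0.64), and with only the libraries of the lines compared that of synapse genes (2.49). The supporting cell median, 0.02, ran from -0.13 to 1.12 over the settings that changed the filter, scaling, pseudocount or libraries fitted. Quantile normalisation gave 1221 rises and 1085 falls (52.9% rises, against 62.0%) and moved the median of all genes to -0.07.

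With the replicate number as a block, T, Eomes, Mesp1, Fgf8, Myl7 and Tff3 passed, as given above. Ints2 (adjusted p = 0.0546) and the difference of Acvr1c from iG+A no longer passed. The block changed no other call among the genes named here. With 2 libraries a group, genes that varied between clones had wide errors, such as T (SE 1.24). Reads of single genes could not be counted, so the depth behind low values is known only roughly.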
